A study of Mus musculus with 7 samples.

Results

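Cell cycle and mitosis genes were followed in whole mouse kidney as a set of 46 genes chosen by symbol for their known part in cell division. They include the cyclins and their kinases, the replication machinery, the mitotic spindle and its checkpoint, and the proteins that divide the cell. All 46 were found among the 45706 genes of the deposited tables. Of these, 45 were among the 15399 genes with enough counts to be tested, and the cyclin Ccne1 was not, with at most 9 counts in a library.

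The kidneys came from 7 male mice, all Slc7a9-/- and 6 months old. In the ergothioneine group, 4 mice had received L-ergothioneine in their drinking water at 16 mg/kg/day, and 3 mice of the untreated group had not. Slc7a9 encodes a subunit of the kidney transporter that reclaims cystine from the urine, and its loss in mice models cystinuria, a kidney stone disease. Ergothioneine is a dietary antioxidant that contains sulfur. Both groups carried the deletion, and no wild-type kidney was compared. How long the treatment lasted, whether mice shared a litter or cage, and the hour of collection were not given in the labels.

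A dividing cell passes through a growth phase (G1), DNA synthesis (S phase), a second growth phase (G2) and mitosis (M). D-type cyclins with Cdk4 and E-type cyclins with Cdk2 drive entry into S phase, cyclin A takes over during replication, and Cdk1 with the B-type cyclins starts mitosis. Many genes of G2 and mitosis are transcribed only in cycling cells, in a wave driven by the B-Myb and FOXM1 factors, and many of their proteins are destroyed through the anaphase-promoting complex as mitosis ends. Most cells of the adult kidney are not dividing, so these transcripts are scarce there, whereas D-type cyclins are also made by resting cells.

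Among the 45 tested genes, 11 were higher and 2 were lower in ergothioneine kidneys by edgeR's quasi-likelihood test with Benjamini-Hochberg adjustment over all tested genes, at a threshold of 0.05. Calls in either direction made up 7.16% of all tested genes. The 11 were 24.4% of the tested set, beside 3.58% of all tested genes called higher. The 2 lower genes were 4.44% of the set, close to the 3.57% of all tested genes called lower. The 11 were Rrm2, Kif11, Mki67, Ccnb1, Esco2, Cdc20, Cdk1, Iqgap3, Pbk, Ube2c and Prc1, with log2 fold changes between 1.09 and 2.40, and the 2 were Wee1 and Ccnd3. The log2 fold change was positive for 39 of the 45 and its median was 0.66, against -0.0031 over all tested genes. Genes of such a set can vary together from kidney to kidney, so these 45 values are not independent of each other.

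The levels behind these calls were low. The median of the mean log2 CPM (CPM, counts scaled to library sizes that TMM had adjusted) was 1.26 for the 45 genes, against 4.08 for all tested genes. Between a mean log2 CPM of 0 and under 3, 10 of 29 members were called higher, beside 1.5% of the 4472 tested genes of that range. Under 0, 1 of 4 members was called higher, beside 0.811% of 987 genes. At 3 and above, 2 of 12 members were called by the same edgeR test, both lower. Over tested genes of every level, 3.58% were called higher and 3.57% lower, and a share for this range alone was not taken. Bub1, Birc5, Esco2, Pbk and Ube2c passed the filter on low counts through ergothioneine libraries alone. These 5 were tested only through their levels there, and 3 of them are among the 11. Ccnb1, Cdk1 and Iqgap3, also among the 11, and Ccnb2 and Aurkb each had 1 untreated library over the cutoff of the filter. Aurka, Plk1, Cenpf and Kif20a each had 2. These genes too passed the filter only with the help of ergothioneine libraries. A filter on the mean over all 7 libraries, blind to the groups, again gave 11 higher and 2 lower.

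**Figure D1:**
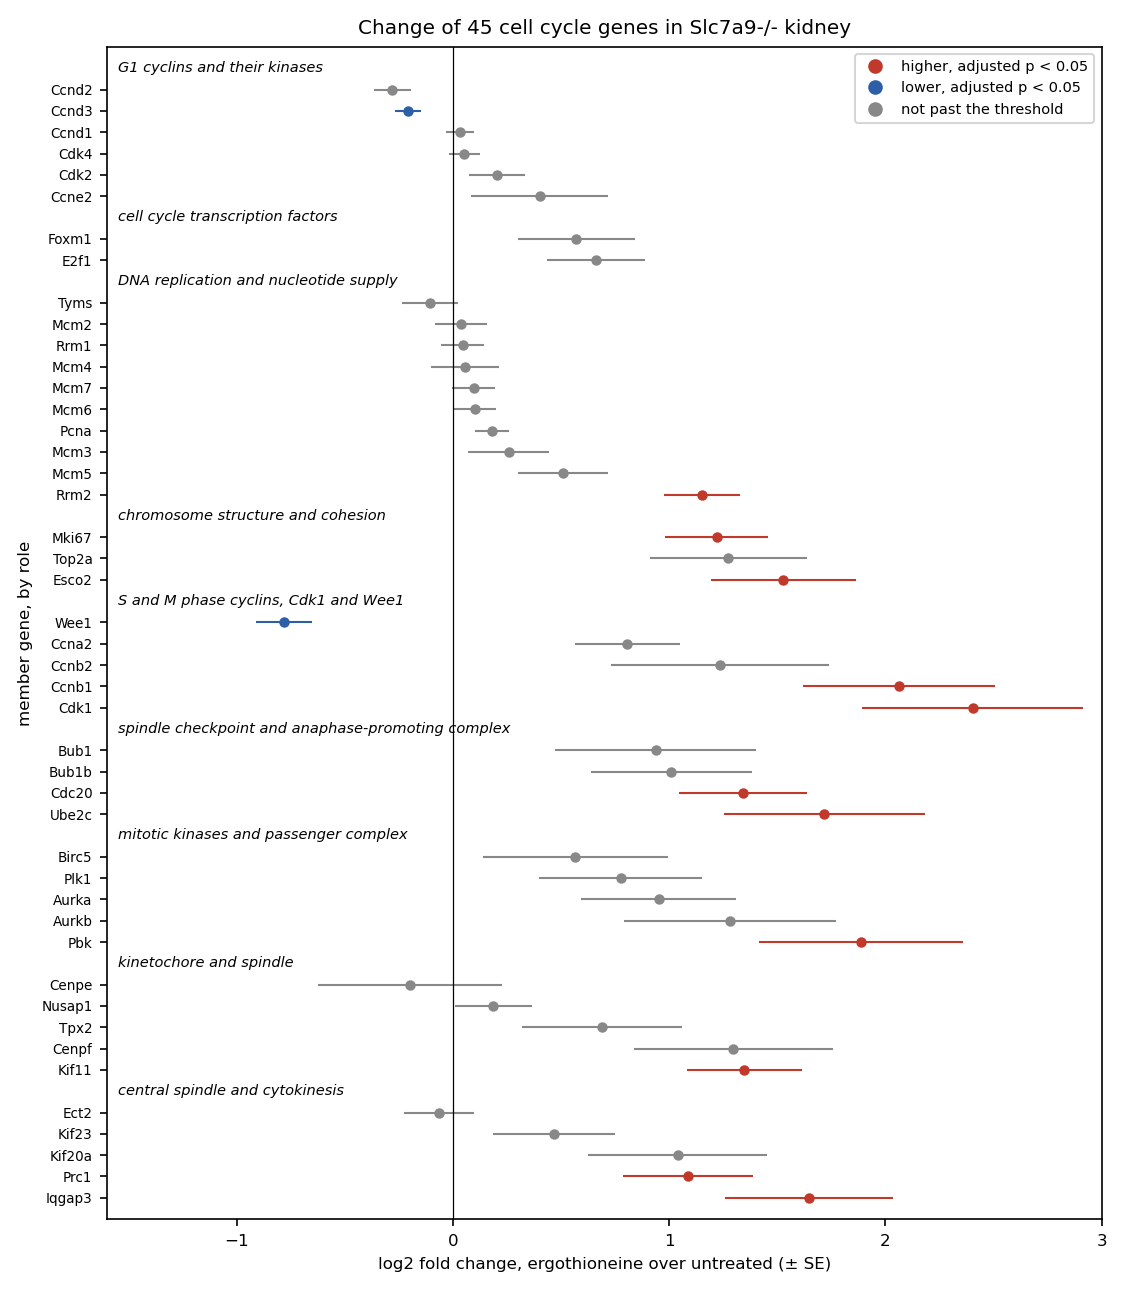
Log2 fold change of the 45 tested cell cycle genes, ergothioneine over untreated, by role. Points are edgeR estimates and bars their standard errors. The 11 red genes were called higher and lie between 1.09 and 2.40, and the 2 blue genes Wee1 and Ccnd3 were called lower. The G1 and replication genes other than Rrm2 lie between -0.28 (Ccnd2) and 0.51 (Mcm5).

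Libraries held between 14843899 and 19791575 counts. Summed over 12 marker genes of the proximal tubule, the most abundant epithelium of the kidney, the level was 28003 to 31608 CPM in ergothioneine kidneys and 28492 to 30899 CPM in untreated kidneys, as the tissue label calls for. The library names carry index numbers in a low range, 14 to 23 (ergothioneine 2, 3 and 4 and untreated 3), and a high range, 44 to 50 (ergothioneine 1 and untreated 1 and 2). Short non-coding RNAs took 1.83% to 2.79% of counts in ergothioneine libraries, against 0.428% and 0.571% in untreated libraries 1 and 2 and 2.46% in untreated library 3. With the index range as a term in the fit, 6 of the 11 genes passed the threshold (Ccnb1, Cdk1, Kif11, Rrm2, Cdc20 and Esco2), and of the 2 lower genes Wee1 did.

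The individual kidneys differed in how much of the set they held. Summed over the 11 higher genes, the level was 22.6, 36.0, 31.4 and 35.3 CPM in the ergothioneine kidneys, against 13.9, 12.9 and 9.11 CPM in the untreated kidneys. Every ergothioneine kidney lay above every untreated kidney, but since the genes were chosen for passing the test this is a description only. Ergothioneine kidney 1 was the lowest of its group for 9 of the 11 genes, and untreated kidney 3 the lowest of its group for 8. Over all 45 tested members, untreated kidney 3 had the lowest value of the 7 libraries for 25 genes and ergothioneine kidney 4 the highest for 18. Without untreated library 3 the count of higher members was 6 instead of 11, and without ergothioneine library 1 it was 14. In whole tissue, more cells in division and more RNA of these genes per cell cannot be told apart.

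**Figure D2:**
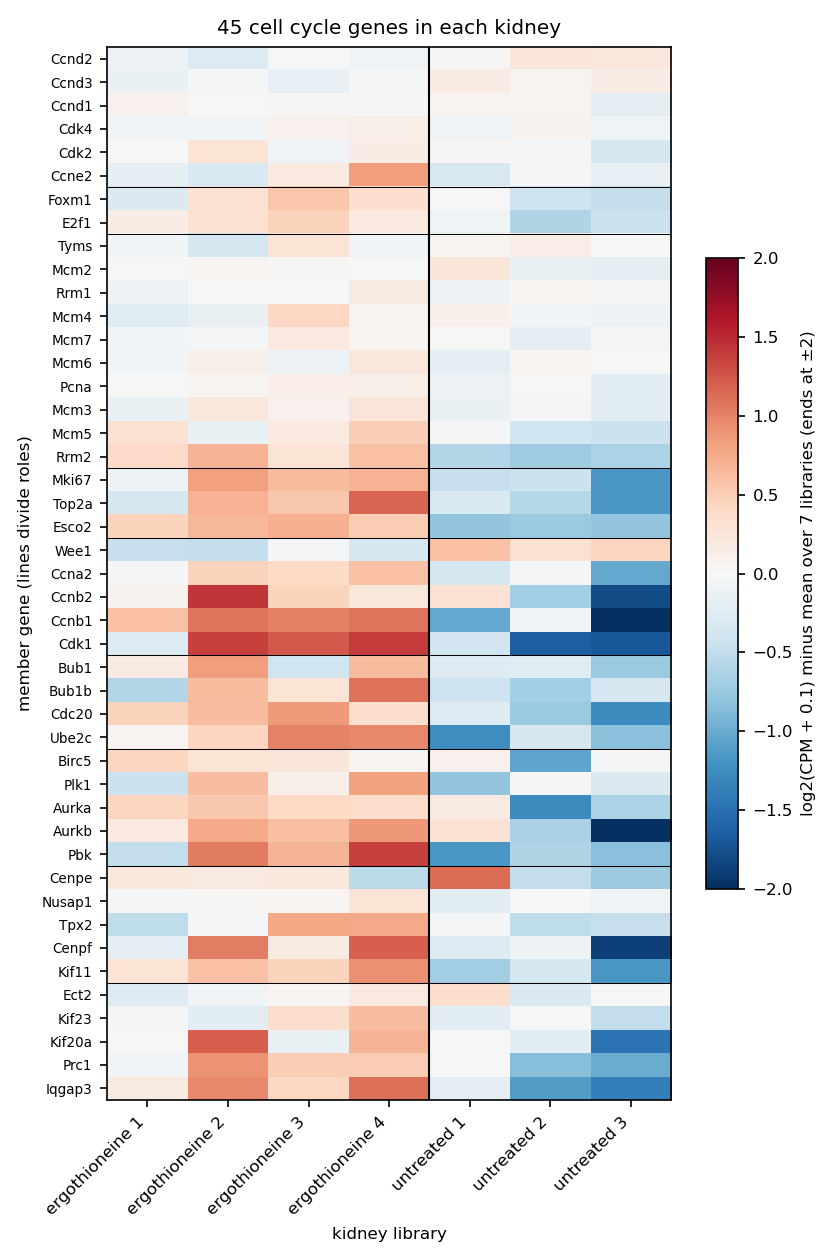
Level of the 45 tested cell cycle genes (rows, by role) in each of the 7 kidneys (columns), as log2(CPM + 0.1) minus the gene's mean over the 7 libraries. Mitotic genes are mostly red in ergothioneine kidneys 2, 3 and 4 and bluest in untreated kidney 3, while the G1 rows at the top are pale throughout.

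Of 6 tested genes that act in G1, 1 was called, and it was lower. Summed over the 7 genes of the role, the level was 295, 287, 293 and 295 CPM in ergothioneine kidneys and 308, 310 and 285 CPM in untreated kidneys. The groups overlapped on this sum. Compared per length, as TPM (counts divided by transcript length and scaled per library) rescaled so that protein-coding genes have the same sum in every library, Cdk4 (73.8 in ergothioneine kidneys, 68.2 in untreated), Ccnd1 (71.5 in ergothioneine, 71.4 in untreated) and Ccnd3 (68.9 in ergothioneine, 84.5 in untreated) stood highest of the whole set. On the same scale Mki67 averaged 1.47 in ergothioneine kidneys and 0.614 in untreated kidneys, and Cdk1 averaged 4.42 in ergothioneine kidneys and 1.21 in untreated kidneys.

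Ccnd3, cyclin D3 (GRCm38 chromosome 17, 47505051 to 47599691), was called lower. It had 66.3, 70.2, 64.8 and 71.3 CPM in ergothioneine kidneys, against 80.9, 75.3 and 80.0 CPM in untreated kidneys. The groups did not overlap, the log2 fold change was -0.21 ± 0.06 (SE), and edgeR's adjusted p was 0.0453. This call was lost without ergothioneine library 1, 2 or 3 or untreated library 1 or 3 (adjusted p between 0.08 and 0.156). Ccnd2, cyclin D2, had 22.5, 20.2, 24.2 and 23.2 CPM in ergothioneine kidneys, against 24.8, 28.9 and 28.5 CPM in untreated kidneys. These groups were also apart, at a log2 fold change of -0.28 ± 0.09, but edgeR's adjusted p was 0.0605, or 0.0442 without untreated library 1. Ccnd1, cyclin D1, had 150.3, 139.8, 144 and 137 CPM with ergothioneine and 147, 146 and 125 CPM without, at a log2 fold change of 0.03 ± 0.06 and an edgeR adjusted p of 0.838. The order of its kidneys showed no separation.

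The kinases that the G1 cyclins activate were measured close together. Cdk4, the partner of D-type cyclins, had 43.9, 43.1, 48.4 and 49.2 CPM in ergothioneine kidneys and 43.0, 47.7 and 42.8 CPM in untreated kidneys (log2 fold change 0.05 ± 0.07). Cdk2, the partner of E-type cyclins, had 10.1, 12.3, 9.58 and 11.2 CPM in ergothioneine kidneys and 10.3, 9.92 and 7.89 CPM in untreated kidneys (log2 fold change 0.20 ± 0.13). Both sets of groups overlapped, and edgeR's adjusted p was 0.754 for Cdk4 and 0.41 for Cdk2. Cyclin E2 (Ccne2) lay between 1.21 and 2.78 CPM with ergothioneine and between 1.19 and 1.47 CPM without, and did not pass either. Its relative Ccne1 reached at most 0.491 CPM in ergothioneine kidneys and 0.453 CPM in untreated kidneys.

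The transcription factors E2f1, which switches on S phase genes, and Foxm1, which switches on G2 and mitotic genes, had positive log2 fold changes that did not pass the threshold. E2f1 had 2.44, 2.73, 3.04 and 2.51 CPM in ergothioneine kidneys, against 2.04, 1.41 and 1.60 CPM in untreated kidneys. Its groups did not overlap, at a log2 fold change of 0.66 ± 0.23 and an edgeR adjusted p of 0.0921. Foxm1 had a log2 fold change of 0.57 ± 0.27 and an edgeR adjusted p of 0.242, with ergothioneine kidney 1 (1.48 CPM) below untreated kidney 1 (1.81 CPM).

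Among 10 genes of DNA replication and nucleotide supply, Rrm2 was called higher and the others were not called. Rrm2 (chromosome 12, 24708241 to 24714146) encodes the small subunit of ribonucleotide reductase, which makes deoxynucleotides and is produced mainly in S phase. It had 5.39, 6.63, 4.97 and 6.22 CPM in ergothioneine kidneys, against 2.72, 2.48 and 2.63 CPM in untreated kidneys. The untreated kidneys agreed closely and every ergothioneine kidney lay well above them, at 5.80 ± 0.757 CPM with ergothioneine (SD, n = 4) and 2.61 ± 0.122 CPM untreated (SD, n = 3). The log2 fold change was 1.15 ± 0.17 and edgeR's adjusted p 0.000519, the smallest of the set. Rrm1, the large subunit of the same enzyme, lay between 13.5 and 16.3 CPM with ergothioneine and between 13.5 and 14.9 CPM without, at a log2 fold change of 0.04 ± 0.10.

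The 6 Mcm genes encode the ring-shaped helicase that unwinds DNA at the fork. Their log2 fold changes lay between 0.03 ± 0.12 for Mcm2 and 0.51 ± 0.21 for Mcm5, and Mcm5, at an unadjusted p of 0.0245, came nearest to the threshold. It had 4.09, 2.99, 3.80 and 4.69 CPM in ergothioneine kidneys and 3.23, 2.48 and 2.44 CPM in untreated kidneys, with an edgeR adjusted p of 0.159. Pcna, the sliding clamp that holds DNA polymerase, had 27.2, 28.3, 29.7 and 29.5 CPM in ergothioneine kidneys and 25.1, 27.3 and 23.4 CPM in untreated kidneys. Its groups overlapped narrowly, at a log2 fold change of 0.18 ± 0.08 and an edgeR adjusted p of 0.19. The deposited counts of Pcna were not whole in any library, so reads were shared with similar sequences. Tyms, the enzyme that makes thymidylate, had a log2 fold change of -0.11 ± 0.13 and did not pass. On the deposited TPM with no rescaling, Mcm6 was called lower, at -0.60 on log2(TPM + 1) with a limma adjusted p of 0.0315, against 0.10 ± 0.10 in the counts. Tyms was also called lower on log2(TPM + 1), at -0.59 with a limma adjusted p of 0.0358. On that scale the median of all genes was -0.31.

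Beyond the G1 and replication roles, 29 members were tested, with 10 called higher, 1 (Wee1) called lower, 26 positive log2 fold changes and a median of 1.04. The shares of all tested genes were 3.58% higher and 3.57% lower. Bub1, Birc5, Esco2, Pbk and Ube2c, which passed the filter through ergothioneine libraries alone, are among the 29. The remaining 16 members held 1 higher and 1 lower call. Each role from chromosome structure to cytokinesis held at least 1 gene called higher.

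Mki67 and Esco2, of the genes for chromosome structure and cohesion, were higher in ergothioneine kidneys. Mki67 (chromosome 7, 135689784 to 135716361) encodes the Ki-67 protein that coats mitotic chromosomes and is the usual marker of cycling cells. It had 5.34, 10.2, 8.94 and 9.32 CPM in ergothioneine kidneys, against 4.14, 4.22 and 2.50 CPM in untreated kidneys. The groups were apart, at 8.44 ± 2.13 CPM with ergothioneine (SD, n = 4) and 3.62 ± 0.970 CPM untreated (SD, n = 3), with ergothioneine kidney 1 nearest to the untreated ones. The log2 fold change was 1.22 ± 0.24 and edgeR's adjusted p 0.00822. Esco2, which acetylates cohesin as sister chromatids are tied together, had 1.19, 1.42, 1.46 and 1.25 CPM in ergothioneine kidneys, against 0.453, 0.469 and 0.449 CPM in untreated kidneys. Both groups were tight and far apart, at a log2 fold change of 1.53 ± 0.33 and an edgeR adjusted p of 0.00914. Top2a, the topoisomerase that untangles chromosomes, had 2.90, 6.12, 5.49 and 8.45 CPM in ergothioneine kidneys, against 3.00, 2.48 and 1.60 CPM in untreated kidneys. Ergothioneine kidney 1 fell among the untreated values, and with a log2 fold change of 1.27 ± 0.36 edgeR's adjusted p was 0.0735, or 0.00216 without ergothioneine library 1. DESeq2's adjusted p for Top2a was 0.000906 with all 7 libraries.

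The mitotic kinase Cdk1 and its partner cyclin B1 had the 2 largest log2 fold changes of the set. Cdk1 (chromosome 10, 69335146 to 69352938) had 0.681, 2.33, 2.10 and 2.40 CPM in ergothioneine kidneys, against 0.623, 0.201 and 0.192 CPM in untreated kidneys, from 12, 46, 36 and 44 counts with ergothioneine and 11, 3 and 3 counts without. Ergothioneine kidney 1 lay just above untreated kidney 1, and the other 3 ergothioneine kidneys lay far above. The log2 fold change was 2.40 ± 0.51 and edgeR's adjusted p 0.0108, which became 0.0531 without untreated library 2 and 0.0528 without untreated library 3. The Cdk1 call was also lost with limma-voom (adjusted p 0.0576) and with replicate number as a term in the edgeR fit (adjusted p 0.0888). Ccnb1 (chromosome 13, 100778650 to 100786570) had 1.42, 2.02, 1.93 and 2.02 CPM in ergothioneine kidneys, against 0.397, 0.871 and 0.0641 CPM in untreated kidneys, where untreated kidney 3 held 1 count. Its groups were apart, at a log2 fold change of 2.06 ± 0.44 and an edgeR adjusted p of 0.009.

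The other cyclins of S and M phase did not pass the threshold. Ccna2, cyclin A2, had 2.78, 3.95, 3.80 and 4.31 CPM in ergothioneine kidneys, against 2.21, 2.81 and 1.35 CPM in untreated kidneys. Ergothioneine kidney 1 fell just below untreated kidney 2, and at a log2 fold change of 0.81 ± 0.24 edgeR's adjusted p was 0.0543, or 0.0465 without ergothioneine library 1 and 0.0307 without untreated library 2. Ccnb2, cyclin B2, had 0.965, 2.63, 1.29 and 1.09 CPM in ergothioneine kidneys, against 1.13, 0.536 and 0.192 CPM in untreated kidneys (log2 fold change 1.23 ± 0.50, edgeR adjusted p 0.177).

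Wee1 went the other way. The Wee1 gene lies on chromosome 7, 110122046 to 110143286. Its kinase holds back mitosis by phosphorylating Cdk1, and in mouse liver its transcription is known to be driven by the circadian clock. Wee1 had 6.47, 6.43, 8.71 and 7.09 CPM in ergothioneine kidneys, against 13.6, 11.2 and 12.1 CPM in untreated kidneys. No ergothioneine kidney came near the untreated range, at 7.17 ± 1.07 CPM with ergothioneine (SD, n = 4) and 12.3 ± 1.22 CPM untreated (SD, n = 3). The log2 fold change was -0.78 ± 0.13 and edgeR's adjusted p 0.00125.

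Cdc20 and Ube2c were called higher among 4 genes of the spindle checkpoint and the anaphase-promoting complex, and both work with that complex. Cdc20 (chromosome 4, 118432901 to 118437352), its mitotic activator and the target of the checkpoint, had 2.10, 2.38, 2.80 and 1.96 CPM in ergothioneine kidneys, against 1.25, 0.871 and 0.577 CPM in untreated kidneys. The groups did not overlap, at a log2 fold change of 1.34 ± 0.30 and an edgeR adjusted p of 0.0099. Ube2c (chromosome 2, 164769898 to 164778822), the ubiquitin-conjugating enzyme that works with the complex, had 0.568, 0.759, 1.17 and 1.15 CPM in ergothioneine kidneys, against 0.170, 0.402 and 0.257 CPM in untreated kidneys. Its log2 fold change was 1.72 ± 0.47 with an edgeR adjusted p of 0.0329, and the call was lost without ergothioneine library 3 (0.0719), untreated library 1 (0.143) or untreated library 3 (0.0978). Cdc20 shares exon sequence on the opposite strand with Elovl1, which stood at 66.3 CPM in ergothioneine kidneys and 58.5 CPM in untreated kidneys. The kit makes stranded libraries, but whether the counting used strand was not given in the sources used here, so reads of Elovl1 within the Cdc20 count cannot be told apart. The same holds for Prc1 with Rccd1 (2.40 CPM in ergothioneine kidneys and 2.38 CPM in untreated kidneys) and for Ccnd3 with Bysl (12.0 CPM in ergothioneine kidneys and 11.6 CPM in untreated kidneys), while Tnnc2, across from Ube2c, was at 0 in both groups.

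The checkpoint kinases themselves were not called. Bub1b, which encodes the checkpoint protein BubR1, had 0.795, 1.97, 1.52 and 2.73 CPM in ergothioneine kidneys, against 0.907, 0.737 and 0.962 CPM in untreated kidneys. Ergothioneine kidney 1 lay among the untreated ones, and the log2 fold change of 1.01 ± 0.37 had an edgeR adjusted p of 0.119, or 0.0372 without ergothioneine library 1. Bub1 had a log2 fold change of 0.94 ± 0.47 and an edgeR adjusted p of 0.268.

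Of the mitotic kinases and the chromosomal passenger complex, Pbk was called higher. Pbk, a kinase found in mitotic cells and also known as TOPK, had 0.511, 1.67, 1.29 and 2.13 CPM in ergothioneine kidneys, against 0.283, 0.469 and 0.385 CPM in untreated kidneys. Ergothioneine kidney 1 stood just above the untreated range, at a log2 fold change of 1.89 ± 0.47 and an edgeR adjusted p of 0.0214. The call was lost without untreated library 1 (0.0966) or untreated library 3 (0.0712), and without ergothioneine library 2, 3 or 4 the gene had too few counts to be tested. With limma-voom the adjusted p of Pbk was 0.0819. Pbk (chromosome 14, plus strand, 65805837 to 65817822) and Esco2 (minus strand, 65819038 to 65833994) are neighbours that end towards each other, and their annotated exons do not overlap. Aurka, the Aurora kinase of the spindle poles, had 1.31, 1.42, 1.29 and 1.25 CPM in ergothioneine kidneys, against 1.08, 0.335 and 0.577 CPM in untreated kidneys. Its groups were apart, but the log2 fold change of 0.95 ± 0.36 had an edgeR adjusted p of 0.128, or 0.0463 without untreated library 1. Aurkb, the Aurora kinase of the passenger complex, had 0.681, 1.06, 0.935 and 1.15 CPM in ergothioneine kidneys, against 0.737, 0.335 and 0.0641 CPM in untreated kidneys (log2 fold change 1.28 ± 0.49, edgeR adjusted p 0.134, or 0.0415 without untreated library 1). Plk1, a kinase needed at several steps of mitosis, and Birc5, which encodes the passenger protein survivin, had log2 fold changes of 0.77 ± 0.38 and 0.57 ± 0.43 and did not pass.

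Kif11 (chromosome 19, 37376403 to 37421859) was called higher among 5 genes of the kinetochore and spindle. It encodes the motor that pushes the spindle poles apart and had 2.44, 3.04, 2.75 and 3.87 CPM in ergothioneine kidneys, against 1.19, 1.54 and 0.834 CPM in untreated kidneys. The groups were apart, at 3.02 ± 0.615 CPM with ergothioneine (SD, n = 4) and 1.19 ± 0.354 CPM untreated (SD, n = 3). The log2 fold change was 1.35 ± 0.27 and edgeR's adjusted p 0.0044. Cenpf, a large kinetochore protein, had 1.25, 3.04, 1.64 and 3.44 CPM in ergothioneine kidneys, against 1.19, 1.34 and 0.321 CPM in untreated kidneys. Ergothioneine kidney 1 again fell between untreated values, and the log2 fold change of 1.30 ± 0.46 had an edgeR adjusted p of 0.126. Cenpe, the kinetochore motor that carries chromosomes to the spindle equator, had 1.82, 1.77, 1.81 and 1.04 CPM in ergothioneine kidneys, against 3.46, 1.07 and 0.898 CPM in untreated kidneys. Its log2 fold change of -0.20 ± 0.43 turned on untreated kidney 1 and was 0.71 without that library. Tpx2, which activates Aurora A on the spindle, and Nusap1, which bundles spindle microtubules, had log2 fold changes of 0.69 ± 0.37 and 0.19 ± 0.18 and did not pass.

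Iqgap3 and Prc1 were called higher among 5 genes of the central spindle and cytokinesis. Iqgap3 (chromosome 3, 88081971 to 88121048), a scaffold protein of the cell cortex in proliferating cells, had 1.14, 2.02, 1.34 and 2.24 CPM in ergothioneine kidneys, against 0.850, 0.402 and 0.321 CPM in untreated kidneys. The groups were apart, at a log2 fold change of 1.65 ± 0.39 and an edgeR adjusted p of 0.0146, which became 0.0599 without untreated library 2 and 0.0717 without untreated library 3. Prc1 (chromosome 7, 80294450 to 80316259), which crosslinks the microtubules of the central spindle, had 1.82, 3.59, 2.69 and 2.73 CPM in ergothioneine kidneys, against 1.87, 1.01 and 0.898 CPM in untreated kidneys. Its groups overlapped by 1 kidney, at a log2 fold change of 1.09 ± 0.30 and an edgeR adjusted p of 0.0365, and the call was lost without ergothioneine library 2, 3 or 4 or untreated library 2 or 3 (0.0611 to 0.137). Kif20a, a motor of the same structure, had 1.42, 3.39, 1.29 and 2.34 CPM in ergothioneine kidneys, against 1.42, 1.21 and 0.449 CPM in untreated kidneys (log2 fold change 1.04 ± 0.41, edgeR adjusted p 0.164). Kif23, the motor of the centralspindlin complex, and Ect2, which starts furrow formation, had log2 fold changes of 0.47 ± 0.28 and -0.07 ± 0.16 and did not pass.

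**Figure D3:**
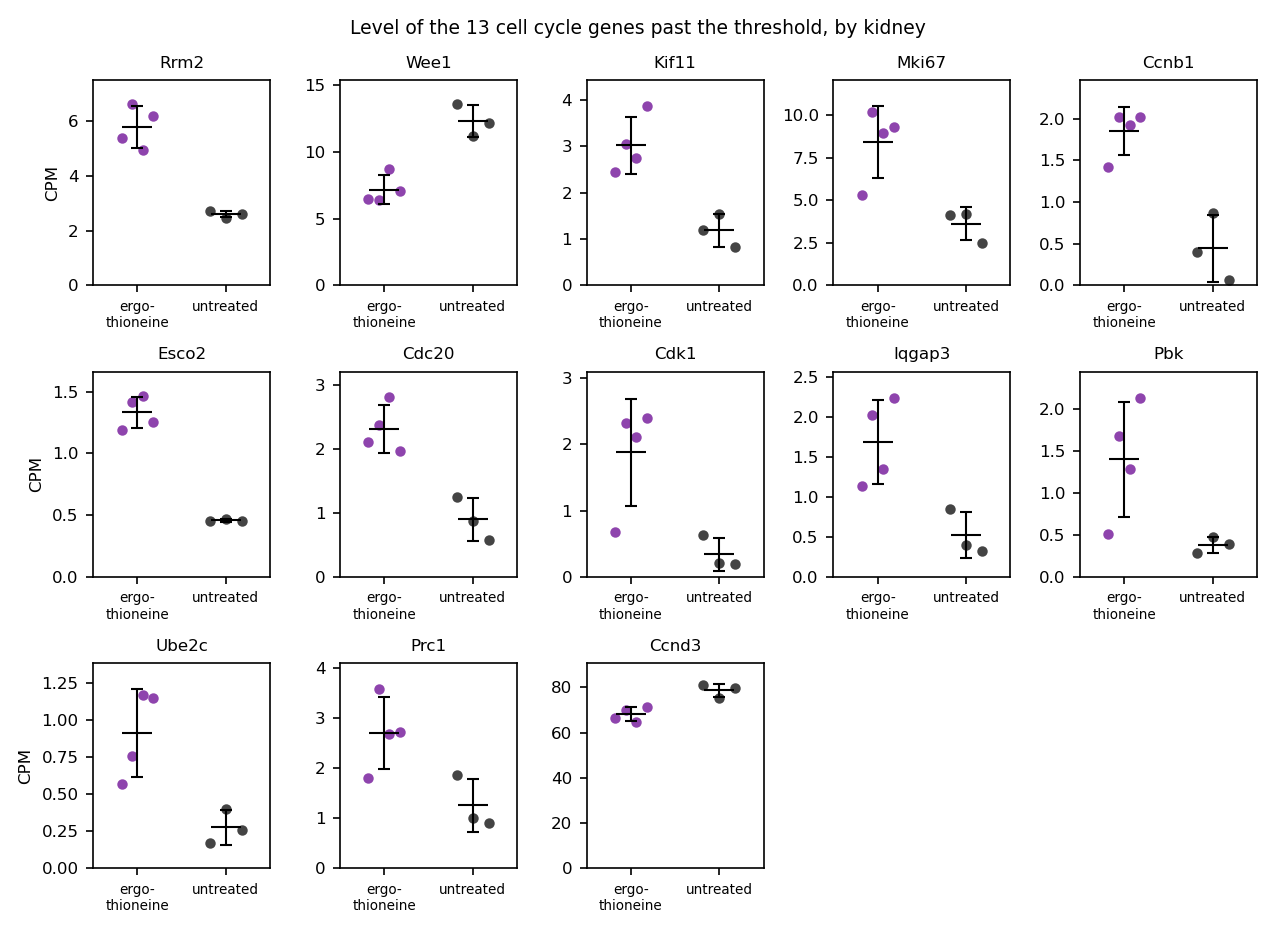
CPM of the 13 cell cycle genes past the threshold in each kidney, with ergothioneine (n = 4) left and untreated (n = 3) right. Points are kidneys, the long bar is the mean and the whiskers are 1 SD. The groups do not overlap except for Prc1, and ergothioneine kidney 1, the leftmost purple point, is often the lowest of its group.

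Across the set, the CPM ranges of the groups did not overlap for 12 genes that were higher and 3 that were lower in ergothioneine kidneys, and overlapped for 30. Over all tested genes, 9.46% were apart with ergothioneine higher and 9.11% with ergothioneine lower. The 12 were the genes called higher without Prc1, joined by E2f1 and Aurka, and the 3 were Wee1, Ccnd3 and Ccnd2. In all, 12 genes had an unadjusted p under 0.05 and did not pass after adjustment. They include E2f1, Aurka and Ccnd2, named above, and Ccna2, Top2a, Cenpf and Aurkb.

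Rrm2, Wee1, Kif11, Mki67, Ccnb1, Esco2 and Cdc20 stayed past the threshold when any single library was left out. None of the 13 called genes changed sign in any of the 23 settings tried in which it was tested. On the deposited TPM, tested with limma, fewer members were called higher, 4 on log2(TPM + 1) and 3 on log2(TPM + 0.1), and 4 were called lower on each. The split over all genes there was 54 higher and 1484 lower on log2(TPM + 1), beside 552 and 550 in the counts, in libraries where short non-coding RNAs took 37.5% to 48.5% of TPM with ergothioneine, against 12.2%, 16.2% and 48.7% without. After rescaling TPM to protein-coding genes the split was 130 and 141, with 2 members higher and 1 lower.

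**Figure D4:**
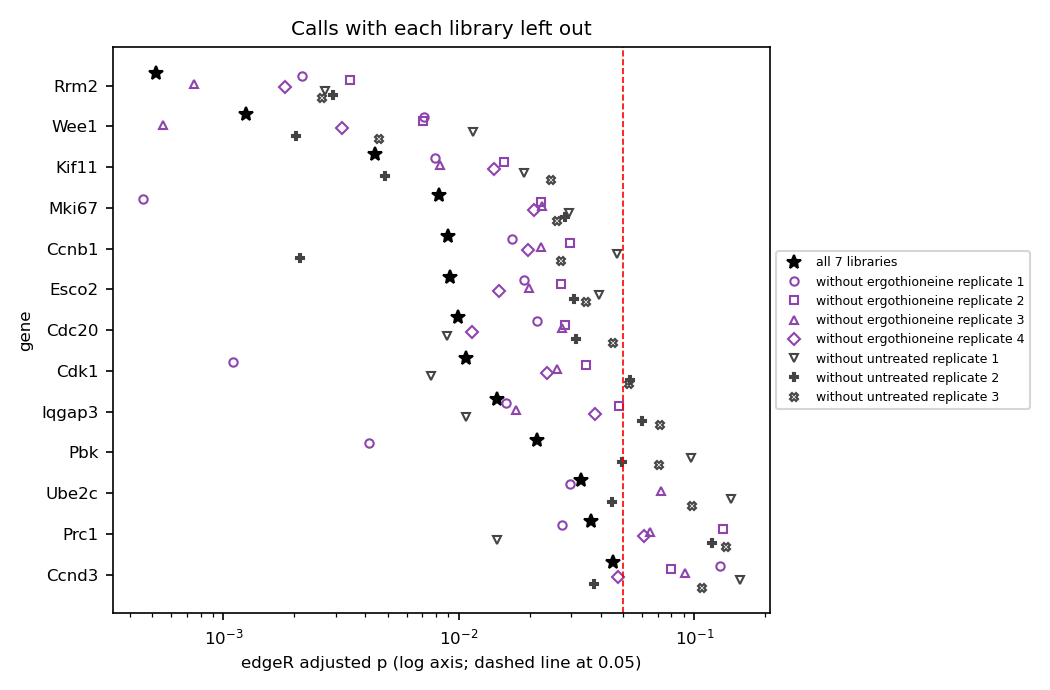
Adjusted p (log axis, edgeR) of the 13 called cell cycle genes with all 7 libraries (stars) and with each library left out. The dashed line marks 0.05. The upper 7 genes stay left of the line throughout, and in the lower 6 rows the symbol for untreated library 3 lies to its right each time.

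Promoters were examined because several of these genes were higher together and such genes are known to share control elements. The cell cycle genes homology region (CHR, TTTGAA) and the CCAAT box (CCAAT) mark promoters of G2 and mitotic genes, where the DREAM and B-Myb complexes and the factor NF-Y bind, and E2F sites (TTTCGCGC and TTTGGCGC) mark G1 and S genes. RefSeq windows from 250 bases before to 50 bases after the start (GRCm38.p6) were at hand for 34 of the 46 genes and searched on both strands. The 250 bases before the start are shown, 5′ to 3′ in the direction of transcription, for the 6 called genes with the smallest adjusted p that had a window and were higher, and for Mcm6 as an uncalled replication gene. Capitals mark motif matches on either strand.
Rrm2, chr12:24708004-24708253, plus strand: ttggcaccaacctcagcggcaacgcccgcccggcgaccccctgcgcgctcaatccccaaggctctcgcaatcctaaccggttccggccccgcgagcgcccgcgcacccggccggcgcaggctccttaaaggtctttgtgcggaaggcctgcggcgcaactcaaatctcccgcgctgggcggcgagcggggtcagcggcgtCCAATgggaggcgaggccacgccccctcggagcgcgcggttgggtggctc
Kif11, chr19:37376132-37376381, plus strand: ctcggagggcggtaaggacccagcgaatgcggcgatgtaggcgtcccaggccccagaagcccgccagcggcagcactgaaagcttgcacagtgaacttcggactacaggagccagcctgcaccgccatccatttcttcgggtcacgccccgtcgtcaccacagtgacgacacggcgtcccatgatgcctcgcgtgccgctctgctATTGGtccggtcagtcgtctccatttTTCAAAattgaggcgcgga
Mki67, chr7:135716380-135716629, minus strand: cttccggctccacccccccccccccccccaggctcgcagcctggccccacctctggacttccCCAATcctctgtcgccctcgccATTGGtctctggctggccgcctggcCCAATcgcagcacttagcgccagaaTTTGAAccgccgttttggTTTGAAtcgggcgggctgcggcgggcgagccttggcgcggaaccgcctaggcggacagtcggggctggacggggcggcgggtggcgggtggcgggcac
Ccnb1, chr13:100786487-100786736, minus strand: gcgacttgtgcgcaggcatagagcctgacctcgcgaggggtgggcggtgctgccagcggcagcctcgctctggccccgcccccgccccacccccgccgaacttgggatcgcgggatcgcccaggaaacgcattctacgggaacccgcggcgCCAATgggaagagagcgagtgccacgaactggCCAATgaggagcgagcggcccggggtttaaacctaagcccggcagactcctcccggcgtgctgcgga
Cdc20, chr4:118437344-118437593, minus strand: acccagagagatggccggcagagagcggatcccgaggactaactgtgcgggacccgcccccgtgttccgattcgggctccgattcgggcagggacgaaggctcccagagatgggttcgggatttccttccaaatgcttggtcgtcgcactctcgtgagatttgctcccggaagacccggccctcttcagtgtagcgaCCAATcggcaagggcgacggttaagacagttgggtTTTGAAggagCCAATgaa
Cdk1, chr10:69352913-69353162, minus strand: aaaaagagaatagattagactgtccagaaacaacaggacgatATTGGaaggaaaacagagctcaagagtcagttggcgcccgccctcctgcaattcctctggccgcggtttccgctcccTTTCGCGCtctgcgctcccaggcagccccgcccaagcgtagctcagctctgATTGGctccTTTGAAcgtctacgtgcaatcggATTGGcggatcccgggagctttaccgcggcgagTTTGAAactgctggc
Mcm6, chr1:128359706-128359955, minus strand: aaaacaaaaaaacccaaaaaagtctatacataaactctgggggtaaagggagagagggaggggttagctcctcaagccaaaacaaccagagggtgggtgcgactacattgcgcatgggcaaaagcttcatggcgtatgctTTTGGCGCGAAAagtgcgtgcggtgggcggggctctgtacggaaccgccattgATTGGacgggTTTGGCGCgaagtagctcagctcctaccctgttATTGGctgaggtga
Cdk1 holds CHR, CCAAT and E2F matches, with the E2F match 131 bases before the start, CHR matches at 71 and 15 bases and CCAAT matches at 208, 80 and 48 bases. Mki67 holds CHR matches at 116 and 98 bases. Kif11 (19 bases) and Cdc20 (18 bases) hold a CHR match close to the start. Ccnb1 and Rrm2 hold CCAAT matches and no CHR match in these letters. In Mcm6 the 2 E2F motifs overlap at the longer run of capitals.

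TTTGAA was found in 7 of the 9 higher genes with a window and in 9 of the 25 other members, beside 18.1% of 27025 RefSeq windows of the same length. The 9 other members were the replication gene Mcm2, and Top2a, Ccnb2, Bub1b, Aurka, Plk1, Cenpf, Kif23 and Ect2 from the roles beyond G1 and replication. No G1 gene and no other replication gene with a window held TTTGAA, so the higher and the other members differ here in role as well as in call. Beyond those roles, every higher gene with a window held TTTGAA except Ccnb1. The other members with a window in these further roles that lacked it were Bub1, Birc5, Cenpe, Nusap1 and E2f1. A difference by call within these roles was not tested. CCAAT was found in 8 of the 9 and in 18 of the 25, beside 37.9% of all windows, and both motifs together in 6 of the 9 and 9 of the 25, beside 7.11%. An E2F match of either form was found in 1 of the 9 and in 4 of the 25, beside 0.825% of all windows. The E-box CACGTG, bound by the clock factors and by Myc, was found in Cdk4 and Tyms, beside 7.22% of all windows. Wee1 had no window in the table. A match describes the letters of a window and shows no binding in these kidneys.

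Genes of the same pathways outside the set were counted from lists that do not overlap it. Of 75 other mitotic genes, 52 were tested, with 6 called higher and 1 lower, a median log2 fold change of 0.58 and 46 positive values. Over all tested genes, 3.58% were called higher and 3.57% lower. Sgo2a, a protector of centromere cohesion, had 1.18 ± 0.0897 CPM in ergothioneine kidneys (SD, n = 4) and 0.372 ± 0.0327 CPM in untreated kidneys (SD, n = 3), at a log2 fold change of 1.64 ± 0.36 (edgeR adjusted p 0.00891). Hmmr and Ckap2, which act on spindle microtubules, had log2 fold changes of 1.46 ± 0.34 each (0.0132 and 0.0144). Espl1, the separase that cuts cohesin, had a log2 fold change of 1.17 ± 0.30 (0.0234). In the untreated kidneys Sgo2a had 0.397, 0.335 and 0.385 CPM, and Ncaph, also called higher, had 0.397, 0.134 and 0.513 CPM. All these values lie under the 0.563 CPM cutoff of the filter, so both genes were tested only through ergothioneine libraries. Ckap2, at 0.567, 0.536 and 0.449 CPM in untreated kidneys, stood near or under that cutoff. Kif20b, a motor of cytokinesis, was lower, at 5.40 ± 1.13 CPM in ergothioneine kidneys and 11.7 ± 3.62 CPM in untreated kidneys, with a log2 fold change of -1.11 ± 0.22 (0.0111). Hmmr (0.0623), Ckap2 (0.0595) and Espl1 (0.0926) lost the threshold without untreated library 3. Espl1 also lost it without ergothioneine library 4 (0.0526) or untreated library 1 (0.055) or 2 (0.0576), and Kif20b without ergothioneine library 1 (0.0527) or untreated library 2 (0.0539). Without untreated library 3 the 6 higher calls of this list became 1, and without ergothioneine library 4 they became 3.

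Of 53 tested other DNA replication genes, 2 were called by edgeR, both higher, with a median log2 fold change of 0.21. That count is close to the share of all tested genes called higher, 3.58%. They were Cdt1, the licensing factor that loads the helicase (0.73 ± 0.15, edgeR adjusted p 0.00717), and Tipin, which steadies stalled forks (0.80 ± 0.18, 0.0124). Among 21 tested RB, E2F and DREAM regulators, 1 was called higher, beside the same 3.58%, and 0 were called lower. It was E2f2, at a log2 fold change of 0.79 ± 0.20 (edgeR adjusted p 0.0213). On log2(TPM + 1), where the median of all genes was -0.31, E2f2 stood at -0.052. On the protein-coding scale it stood at 0.38 and was not called. Rb1 (0.04) and Myc (0.13) did not pass. Mybl2, which encodes B-Myb, was not called, at a log2 fold change of -0.65 ± 0.27 (edgeR adjusted p 0.165). Its groups were apart, at 1.31 CPM in ergothioneine kidneys and 2.05 CPM in untreated kidneys. In this list the groups were apart for 3 lower genes and 1 higher gene, beside 9.11% and 9.46% of all tested genes. The E2f2 call was lost without ergothioneine library 1 (0.0659) or 4 (0.0644) or untreated library 2 (0.0797) or 3 (0.0668).

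Of 25 tested CDK inhibitors and p53 response genes, 3 were called by edgeR, all higher, with a median log2 fold change of 0.16. The share of all tested genes called higher was 3.58%. Cdkn1a, the p21 inhibitor of cyclin-dependent kinases, had 8.43 ± 1.22 CPM in ergothioneine kidneys (SD, n = 4) and 5.03 ± 0.700 CPM in untreated kidneys (SD, n = 3). Its log2 fold change was 0.74 ± 0.15 with an edgeR adjusted p of 0.00619. Trp53inp1 (0.40 ± 0.07, 0.00153) and Bax (0.38 ± 0.10, 0.0285), both p53 targets, were the others. On log2(TPM + 1), where the median of all genes was -0.31, Trp53inp1 stood at -0.017 and Bax at -0.0043. On the protein-coding scale they stood at 0.35 and 0.37, and neither was called. Bax lost the threshold without ergothioneine library 1 (0.0826) or 2 (0.0805) and without untreated library 1 (0.113), 2 (0.0516) or 3 (0.0506). Trp53 itself (-0.09), Cdkn1b (-0.03) and Cdkn1c (-0.01) did not pass, and Cdkn2a was at 0 in every library.

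Of 20 clock genes, 14 were lower and 3 higher, with a median log2 fold change of -0.72, in the same libraries in which Wee1 was lower. The shares over all tested genes were 3.57% lower and 3.58% higher. Per2 had 17.1 ± 3.10 CPM in ergothioneine kidneys and 83.8 ± 3.33 CPM in untreated kidneys, and Arntl had 11.6 ± 0.685 CPM in ergothioneine kidneys and 1.63 ± 0.515 CPM in untreated kidneys (SD, n = 4 and n = 3). Hour of collection is not in the labels, and its part in the levels of Wee1 or of the other members was not tested.

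**Figure D5:**
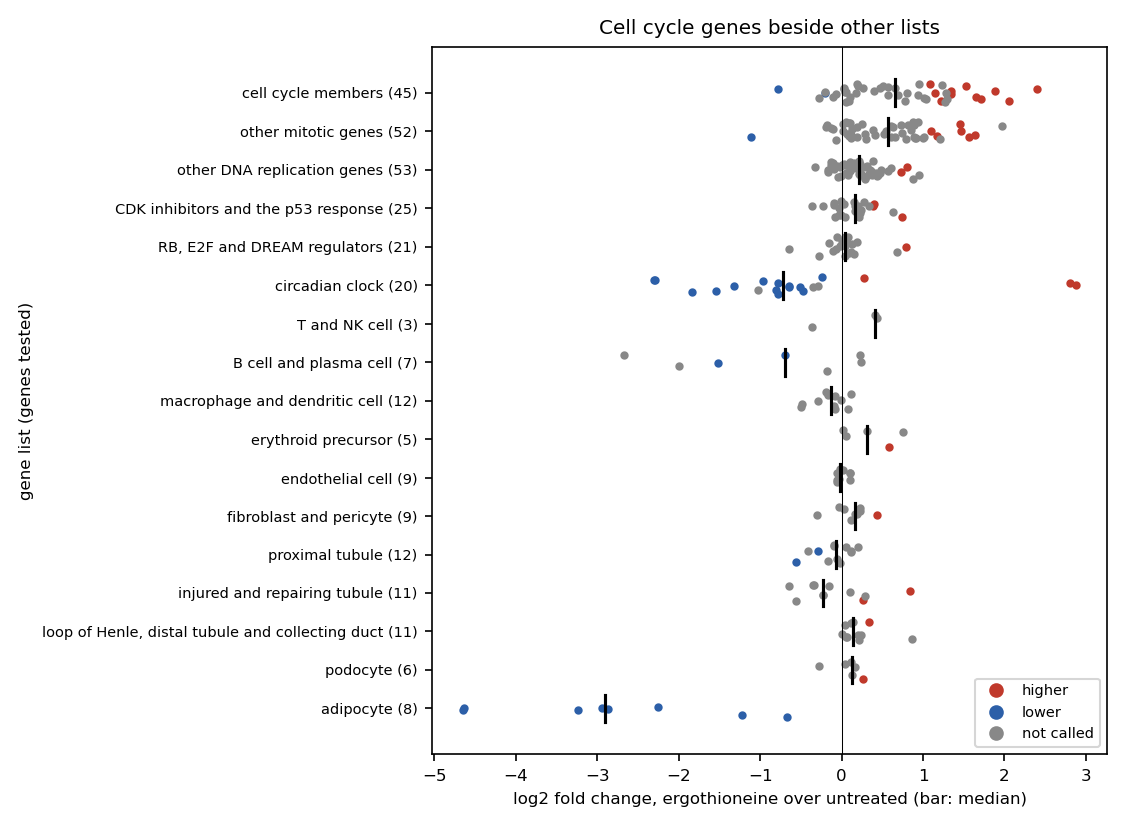
Log2 fold change, ergothioneine over untreated, of every tested gene in the cell cycle set, 5 related pathway lists and 11 cell type lists. Points are genes, vertical bars are list medians, and the numbers in brackets count genes tested. The cell cycle set (median 0.66) and other mitotic genes (0.58) lie to the right of 0, and clock and adipocyte genes mostly to the left.

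Markers of cell types that could carry dividing cells were measured beside these results, and their part in them was not tested. Their edgeR calls stand beside 3.58% of all tested genes called higher and 3.57% called lower. Summed over each list, T and NK cell markers stood at 4.09 to 5.23 CPM in ergothioneine kidneys and 4.59 to 4.96 CPM in untreated kidneys, with 3 of 10 genes testable. Macrophage and dendritic cell markers stood at 113 to 132 CPM in ergothioneine kidneys and 118 to 124 CPM in untreated kidneys, and endothelial markers at 627 to 669 CPM in ergothioneine kidneys and 613 to 692 CPM in untreated kidneys. In these 3 lists 0 genes were called by edgeR, DESeq2 or limma-voom, and 1 macrophage and dendritic cell gene had an unadjusted p under 0.05 by edgeR, lower with ergothioneine. Erythroid precursor markers stood at 203 to 243 CPM in ergothioneine kidneys and 129 to 176 CPM in untreated kidneys, with 1 of 5 tested genes, Slc4a1, higher. B cell and plasma cell markers stood at 114 to 167 CPM in ergothioneine kidneys and 227 to 287 CPM in untreated kidneys, with 2 of 7 tested genes, Jchain and Xbp1, lower.

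Among markers of the kidney's own cells, those of injured and repairing tubule summed to 1173 to 1269 CPM in ergothioneine kidneys and 939 to 979.9 CPM in untreated kidneys, with Itgb6 and Spp1 higher and 9 further tested genes not called. The median log2 fold change of that list was -0.23, with 4 of 11 tested genes positive, and 2 genes with negative values had an unadjusted p under 0.05. Those of the loop of Henle, distal tubule and collecting duct summed to 5823 to 6603 CPM in ergothioneine kidneys and 5266 to 5577 CPM in untreated kidneys, with Slc12a1 higher. Fibroblast and pericyte markers summed to 235 to 257 CPM in ergothioneine kidneys and 195 to 242 CPM in untreated kidneys, with Acta2 higher. Proximal tubule markers, given above, held 2 lower genes, Slc7a13 and Fbp1. Adipocyte markers summed to 761 to 868 CPM in ergothioneine kidneys and 1520 to 2215 CPM in untreated kidneys, and all 8 tested genes were lower, although most of that sum was Pck1, which the proximal tubule also makes. No marker of these 11 lists that was matched to the tables was at 0 in every library. Calls in these lists, too, stand beside 3.58% higher and 3.57% lower over all tested genes. Whether any of these lists bears on the level of the cell cycle genes was not tested.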

How the data were processed

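Per the labels' protocols, total RNA from frozen kidney was depleted of ribosomal RNA and made into stranded libraries, amplified over 10 cycles. The aligners and counters named were, per the submitters' processing notes, STAR 2.7.10a, RSEM 1.3.1, Salmon 1.10.1 and Subread 2.0.1 on GRCm38; neither their roles nor the strand setting could be read from these sources. Deposited by the authors were expected counts and TPM for 45706 Ensembl genes. Of the deposited expected counts, 3.61% were not whole (tolerance 0.005). Symbols and positions came from GENCODE M21 and promoters from RefSeq GRCm38.p6. No paper was used.

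Expected counts of all 7 libraries were rounded and went into edgeR 4.0.16 (R 4.3.3). Steps were filterByExpr by group (10 counts, equal to 0.563 CPM, in enough libraries), TMM scaling, the robust quasi-likelihood F test, Benjamini-Hochberg adjustment over 15399 genes and a calling threshold of 0.05. The SE is the log2 fold change over the square root of F. With 14843899 to 19791575 counts per library, the median SE of a tested gene was 0.11 (log2). The deposited TPM values served for levels per length, rescaled to protein-coding genes, and for limma 3.58.1 on log2(TPM + 1) and log2(TPM + 0.1). Alternatives were DESeq2 1.42.0, limma-voom, other scalings, filters and thresholds, blocks for replicate number and index range, and libraries left out. The tests were also run on simulated data. Libraries of a group differed by 7.48 to 25.4 times sampling noise (chi-square per degree of freedom), so none was a copy of another. Nothing in the labels says that replicates came from separate litters, so p-values measure the spread among these 7 kidneys.

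The members and lists were chosen with earlier results of these data known, so no test of the list is given. The rule for named genes gives values in every library for members past the threshold or with an unadjusted p under 0.05 and for 9 fixed members, up to 4 genes per direction and pathway list past the threshold, and 6 fixed regulators. Per2, Arntl, Mybl2, Ncaph and the called cell type markers were named after their values were seen. Results of 1 marker list, podocyte, are not reported here.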

Additional observations from a re-analysis of the deposited data

Results flagged for a closer look

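In each of the 46 cell cycle genes, the highest and the lowest of the 4 ergothioneine kidneys were set against the others of the group, and 3 genes had a kidney that stood apart by Dixon's 95% criterion, which chance reaches in about 1 in 20 groups. Ccnb1 stood at 1.42 CPM in ergothioneine kidney 1, below 1.93 CPM in the nearest of the group. Cenpe stood at 1.04 CPM in ergothioneine kidney 4, below 1.77 CPM in the nearest. Mcm2 stood at 11.2 CPM in ergothioneine kidney 2, above 11.0 CPM in the nearest, a small step in a group that was otherwise almost level. The untreated group of 3 was not examined in this way.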

How the results depend on the processing

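Of the 46 genes' alternative values, 881 kept direction and side of the threshold, 22 passed it and 73 lost it while keeping direction, and 38 changed sign, all of the last in genes that were not called. Members called higher numbered 11, against 6 with an index range block, 7 with untreated libraries 1 and 2 left out together, 6 at a threshold of 0.01, 4 on log2(TPM + 1), 3 on log2(TPM + 0.1) and 2 on the protein-coding scale, and 6 to 14 with single libraries left out. Members called lower numbered 2, against 1 with the index range block, without those 2 libraries, at 0.01 and on the protein-coding scale, 4 on either plain TPM scale, and 1 to 2 with single libraries left out. DESeq2 gave 13 members higher and limma-voom 9, each with 2 lower. Top2a (adjusted p 0.000906), Ccna2 (0.0461) and Cenpf (0.0393) were past the threshold with DESeq2. Genes called in all numbered 1102, against 481 at a threshold of 0.01, 1741 at 0.1, 271 on the protein-coding scale, 556 without untreated libraries 1 and 2, and 692 (without ergothioneine library 1) to 1103 with single libraries left out. Correlations between kidneys of the same replicate number were 0.027, -0.068 and 0.0027, within the range of -0.073 to 0.062 for unlike numbers. These values show no pairing by number, and they cannot exclude a shared litter, cage or batch. The replicate block gave 7 members higher, 1 lower and 809 genes called, with Cdkn1b at 0.0036, Cdkn1c at 0.022, Cenpe at 0.14 and Rrm1 at -0.013. The cause of these shifts was not tested.

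The log2 fold changes that turned negative were, on log2(TPM + 0.1), where the median of all genes was -0.37, Bax -0.0038, Ccnd1 -0.37, Ccne2 -0.019, Cdk2 -0.15, Cdk4 -0.26, Mcm2 -0.31, Mcm4 -0.31, Mcm6 -0.66, Mcm7 -0.38, Myc -0.16, Nusap1 -0.15, Pcna -0.20, Rb1 -0.24, Rrm1 -0.32 and Trp53inp1 -0.017. On log2(TPM + 1) they were Bax -0.0043, Ccnd1 -0.36, Ccne2 -0.017, Cdk2 -0.14, Cdk4 -0.25, E2f2 -0.052, Mcm2 -0.25, Mcm4 -0.23, Mcm6 -0.60, Mcm7 -0.34, Myc -0.15, Nusap1 -0.10, Pcna -0.20, Rb1 -0.23, Rrm1 -0.26 and Trp53inp1 -0.017. On the protein-coding scale Cdkn1b was 0.042, Mcm6 -0.29 and Mcm7 -0.012. Without untreated libraries 1 and 2 Cdkn1b was 0.012, Cdkn1c 0.077 and Cenpe 0.84. With the index range block Cdkn1c was 0.069, Cenpe 0.15 and Mcm4 -0.0025, with no filter Cdkn1c was 0.0022, and with limma-voom Cenpe was 0.010. With single libraries left out the range was -0.041 to 0.077 for Ccnd1, -0.070 to 0.035 for Cdkn1b, -0.069 to 0.073 for Cdkn1c, -0.52 to 0.71 for Cenpe, -0.21 to 0.12 for Ect2, -0.051 to 0.19 for Mcm2, -0.096 to 0.14 for Mcm4, -0.094 to 0.36 for Myc and -0.011 to 0.083 for Rrm1. Depth limits the genes under 20 counts in most libraries, such as Pbk and Ube2c, which several settings could not test.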
